A study of Homo sapiens with 3 samples.

Results

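The integrated stress response core described here consists of 9 genes, ATF4, DDIT3, TRIB3, ATF3, PPP1R15A, CHAC1, CEBPB, CEBPG and NUPR1, picked by gene name out of the 58735 genes of the expression table. Each name matched 1 row, and all 9 genes passed the filter of a mean level of at least 1 FPKM that 13785 genes passed. FPKM is a fragment count scaled to transcript length and to library size, so that levels can be compared between genes. The genes were measured in NCI-H660 (H660), a human neuroendocrine prostate cancer cell line labelled parental, cultured for 24 h with vehicle (DMSO), with 2.5 μM JG231 or with 5 μM JG231. JG231 is an allosteric inhibitor of the chaperone HSP70, and the study treated the cells to see how it alters gene expression. H660 is a single cell line, and no other agent is named for any group. There was 1 library for each condition, so no standard deviation and no p-value can be given for any gene, and the doses share their DMSO control.

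The integrated stress response starts when a stress-sensing kinase phosphorylates the translation factor eIF2 on its alpha subunit. Most translation then slows, while the ATF4 mRNA, which carries upstream open reading frames, is translated more. ATF4 is a basic leucine zipper (bZIP) transcription factor that pairs with C/EBP proteins and switches on genes of amino acid supply together with other factors, of which DDIT3, also called CHOP, is associated with cell death under long stress. PPP1R15A (GADD34) closes the loop by bringing a phosphatase to eIF2.

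The steps of the FPKM values correspond to 16.1 M to 24.1 M fragments per library, with the highest number at 5 μM, while the number of genes above 0 went from 21862 in DMSO to 17293 at 5 μM. The part of this in the results was not tested, and in bulk RNA fewer cells of a type and less RNA per cell cannot be told apart. The neuroendocrine markers SYP, CHGA, ENO2, NCAM1 and INSM1 were detected in every library, from 3.40 FPKM for NCAM1 at 5 μM to 46.0 FPKM for CHGA in DMSO. CHGA was lower in both treated libraries than in DMSO (log2 change -1.60 at 2.5 μM and -1.84 at 5 μM). SYP (-0.44 and -0.25), ENO2 (-0.26 and -0.41) and NCAM1 (-0.35 and -0.84) differed by less, and INSM1 was higher at the lower dose and lower at the higher dose (0.28 and -0.35). The luminal prostate markers KLK3, KLK2 and TMPRSS2 did not exceed 0.32 FPKM, although the labels call the cell type prostatic adenocarcinoma. Changes are given as log2 of the ratio of FPKM + 0.1, a scale that understates the change of low genes.

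All 9 genes were higher at both doses than in DMSO, and 8 of the 9 were higher by more than 1 on the log2 scale, at 2.5 μM and again at 5 μM. Of all 13785 genes, 12.2% were higher and 15.2% were lower by that much at 2.5 μM, and 14.2% were higher and 17.4% lower at 5 μM. The median log2 change of the 9 genes was 3.27 at 2.5 μM and 3.18 at 5 μM, beside a median of 0.00 and -0.01 over all genes. NUPR1, at 0.55 FPKM in DMSO, passed the filter only through the treated libraries, where it is high, and the median at 2.5 μM is its own value. Among genes with at least 1 FPKM in DMSO, a filter chosen after seeing the data, 7 of the other 8 were higher by more than 1 at each dose, with a median of 3.27 and 3.53, where 8.53% and 10.2% of 14769 genes were higher by that much. The largest values were those of TRIB3, 4.61 and 4.84. CHAC1 was the exception below 1, with 0.75 and 0.96. With a log2 change over 0.25 and an expression over 1, the thresholds of the study's methods, the latter read here as an FPKM over 1 in either library, all 9 were higher at both doses, where 36.4% of genes were higher and 43.4% lower at 2.5 μM, and 36.5% higher and 45.1% lower at 5 μM. Summed over the 9 genes, the level was 237 FPKM in DMSO, 1613 FPKM at 2.5 μM and 1864 FPKM at 5 μM, which is 0.072%, 0.508% and 0.518% of all FPKM in the library.

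**Figure D1:**
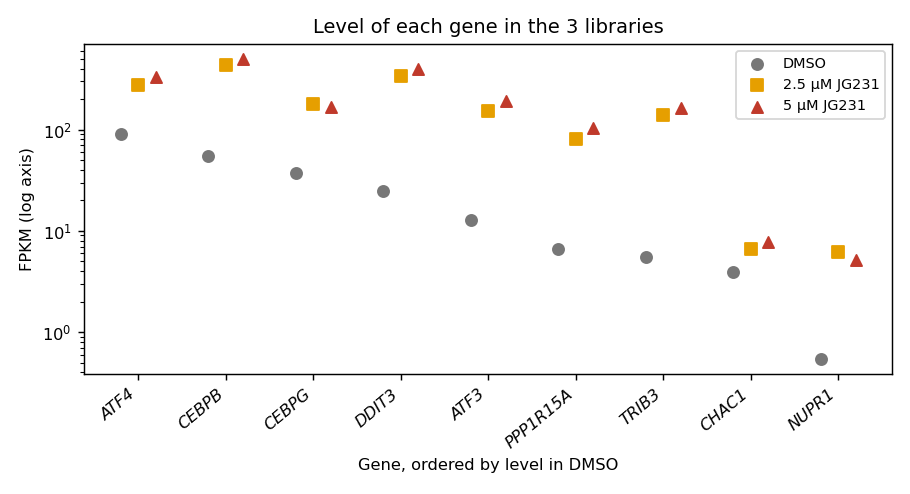
FPKM of each of the 9 genes on a log axis in the DMSO library (circles), the 2.5 μM JG231 library (squares) and the 5 μM JG231 library (triangles), 1 library each. Both JG231 points lie above the DMSO point for every gene, with the smallest gap for CHAC1, from 3.90 to 6.63 and 7.69 FPKM.

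ATF4 (ENSG00000128272, chromosome 22, 39519695 to 39522683 on GRCh38, plus strand), the hub of the response, was the most abundant of the 9 in DMSO. Its level of 90.6 FPKM in DMSO compares with 278 FPKM at 2.5 μM and 331 FPKM at 5 μM, so that both treated libraries were high and close to each other. The FPKM ratio to DMSO was 3.07 at the lower and 3.65 at the higher dose, with log2 changes of 1.62 (95% counting interval 1.52 to 1.71) and 1.87 (1.78 to 1.96). These intervals are exact binomial (Clopper-Pearson) intervals of the fragment ratio and cover counting error only, since amplified reads are not independent molecules. Among all genes, 630 had a larger change than ATF4 at 2.5 μM and 555 at 5 μM. Of its 4 processed pseudogenes, ATF4P3 was the one above 0, with 0.53, 0.60 and 4.53 FPKM, and reads could be shared with it.

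In place of a replicate error, a robust standard deviation was taken from the log2 differences between the JG231 libraries over the 500 genes nearest in level, as the spread of a single gene. It was 0.19 to 0.22 for the genes with a mean level above that of CHAC1, 0.43 for CHAC1 and 0.49 for NUPR1, and the changes of all 9 genes against DMSO exceeded it at both doses. Taken at the DMSO level instead, the spread was 0.21 to 0.52 for the 8 genes other than NUPR1, whose DMSO level is under the filter of 1 FPKM, and the changes of these 8 as deposited exceeded it too. For CHAC1 this did not hold at 2.5 μM under 2 other processings, with a change of 0.45 with the trend with transcript length removed and 0.47 with the sum taken without mitochondrial and small RNA genes, against 0.52. This spread includes any effect of the dose and is not the error of repeated cultures.

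DDIT3 (ENSG00000175197, chromosome 12, 57516588 to 57521737, minus strand) encodes CHOP, the bZIP factor downstream of ATF4 that is known for promoting cell death. It had 24.8 FPKM in DMSO, 338 FPKM at 2.5 μM and 397 FPKM at 5 μM, ratios of 13.6 and 16. The log2 changes were 3.76 (3.59 to 3.96) and 3.996 (3.82 to 4.19), and 167 and 169 genes had larger values. DDIT3 stood below ATF4 in DMSO, at 0.273 of its level, and above it in both treated libraries, at 1.22 and 1.20. The gene overlaps MARS1 (listed as MARS) by 982 bp and MBD6 by 1028 bp, both on the opposite strand, and AC022506.1, on the same strand and listed at 0 in all 3 libraries, by 2769 bp. Counting by strand would not separate the latter from DDIT3. Since it is not stated whether counting used the strand of these strand-specific libraries, part of the reads could be shared with MARS1 and MBD6. MARS1 had log2 changes of 1.41 and 1.49 and MBD6 of 1.18 and 1.01, smaller than those of DDIT3.

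ATF3 (ENSG00000162772, chromosome 1, 212565334 to 212620777, plus strand), a bZIP factor that is induced by many stresses, had 12.8 FPKM in DMSO, 152 FPKM at 2.5 μM and 191 FPKM at 5 μM. Both treated libraries were far above DMSO, by ratios of 11.8 and 14.9 and log2 changes of 3.55 (3.27 to 3.87) and 3.89 (3.601 to 4.19). It rests on at least 100 fragments in DMSO, counted with the shortest annotated transcript.

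The C/EBP partners differed in size of change. CEBPB (ENSG00000172216, chromosome 20, 50190830 to 50192668, plus strand), a factor with a broad role in stress, inflammation and differentiation, had 54.7 FPKM in DMSO, 434.5 FPKM at 2.5 μM and 497.5 FPKM at 5 μM. It was the most abundant of the 9 in both treated libraries, with log2 changes of 2.99 (2.92 to 3.06) and 3.18 (3.11 to 3.26). As a gene with 1 annotated transcript its fragments can be read most directly, 1619 in DMSO as against 16278 and 22012 in the treated libraries. The antisense gene CEBPB-AS1, which overlaps it by 669 bp, stayed under 0.44 FPKM in every library. CEBPG (ENSG00000153879, chromosome 19, 33373685 to 33382686, plus strand), a short C/EBP protein that pairs with ATF4, had 36.8, 178 and 169 FPKM. Its log2 changes were 2.27 (2.20 to 2.35) and 2.19 (2.12 to 2.27). The ratio of CEBPB to CEBPG was 1.49 in DMSO, as against 2.44 and 2.95 in the treated libraries.

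TRIB3 (ENSG00000101255, chromosome 20, 362835 to 397559, plus strand) encodes a pseudokinase that is induced by ATF4 and CHOP and in turn restrains ATF4. It had 5.58 FPKM in DMSO, 139 FPKM at 2.5 μM and 163 FPKM at 5 μM, ratios of 24.9 and 29.2. The log2 changes of 4.61 (4.31 to 4.97) and 4.84 (4.54 to 5.20) were exceeded by 122 and 123 of the 13785 genes. TRIB3 went from 0.0615 of the ATF4 level in DMSO to 0.499 and 0.492 of it.

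PPP1R15A (ENSG00000087074, chromosome 19, 48872212 to 48876059, plus strand), the stress-induced subunit of the eIF2 phosphatase, had 6.63 FPKM in DMSO, 80.8 FPKM at 2.5 μM and 103 FPKM at 5 μM. The treated libraries were higher by ratios of 12.2 and 15.5, log2 changes of 3.59 (3.22 to 4.004) and 3.93 (3.57 to 4.34).

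CHAC1 (ENSG00000128965, chromosome 15, 40952962 to 40956512, plus strand) encodes an enzyme that degrades glutathione and is a target of ATF4. Its level was 3.90 FPKM in DMSO, 6.63 FPKM at 2.5 μM and 7.69 FPKM at 5 μM, ratios of 1.70 and 1.97. The log2 changes were 0.75 (0.29 to 1.27) and 0.96 (0.54 to 1.47), and the upper limits lie below the lower limits of the other 8 genes at both doses. At 5 μM 2070 genes had a larger change. Against ATF4 the level of CHAC1 went the other way from that of the other genes given here, from 0.0430 in DMSO to 0.0238 and 0.0233, and against DDIT3 from 0.157 to 0.0196 and 0.0194. These values stand on few fragments, at least 53 in DMSO, 115 at 2.5 μM and 158 at 5 μM.

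NUPR1 (ENSG00000176046, chromosome 16, 28532708 to 28539008, minus strand), a small stress-induced chromatin-associated protein, was the least abundant of the 9. It had 0.55 FPKM in DMSO, 6.15 FPKM at 2.5 μM and 5.20 FPKM at 5 μM. The log2 changes were 3.27 (2.15 to 5.11) and 3.03 (1.91 to 4.87). The DMSO value stands on 5 fragments with the shortest annotated transcript of 550 bases and on 47 with the canonical one of 5291 bases, so the size of its change is the least well known.

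**Figure D2:**
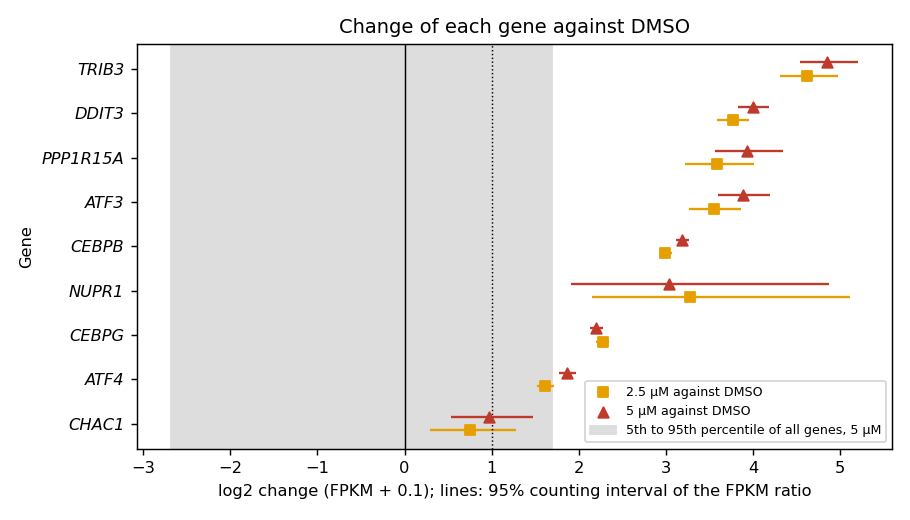
log2 change of each gene at 2.5 μM (squares) and 5 μM (triangles) JG231 against DMSO, with lines for the 95% counting interval of the FPKM ratio, the grey band for the 5th to 95th percentile of all 13785 genes at 5 μM (-2.68 to 1.69), and a dotted line at 1. TRIB3 lies highest at 4.84, ATF4 at 1.87 and CHAC1 at 0.96, the latter inside the band.

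The order of levels differed between DMSO and the treated libraries. In DMSO it was ATF4, CEBPB, CEBPG, DDIT3, ATF3, PPP1R15A, TRIB3, CHAC1 and NUPR1, and the neighbours PPP1R15A and TRIB3 (0.25 on the log2 scale against 0.41) and TRIB3 and CHAC1 (0.517 against 0.519) were within the spread of single genes at their level in that library, a measure chosen after seeing the data. At 5 μM it was CEBPB, DDIT3, ATF4, ATF3, CEBPG, TRIB3, PPP1R15A, CHAC1 and NUPR1. ATF3 and CEBPG differed by 0.18 and CEBPG and TRIB3 by 0.05, both within a spread of 0.20 at that level. At 2.5 μM CEBPG stood above ATF3 by 0.23, and ATF3 and TRIB3 (0.13) and CHAC1 and NUPR1 (0.11) were within the spread.

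Between the doses the differences were small. From 2.5 to 5 μM, 7 of the 9 genes were higher and 2 were lower, and none differed by more than 1 on the log2 scale, where 5.13% of all genes were higher and 5.99% lower by that much. The median log2 difference was 0.23, beside -0.01 over all genes. With a threshold of 0.25, 3 of the 9 were higher (ATF4, ATF3 and PPP1R15A) and none lower, beside 26.8% and 30.1% of all genes. The largest differences were 0.34 for PPP1R15A and 0.33 for ATF3, against a spread of 0.22 and 0.21, and the lower genes were CEBPG with -0.08 and NUPR1 with -0.24, both within their spread. With the FPKM sums of the libraries made equal, the median difference was 0.05.

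The C/EBP-ATF element, the composite site that ATF4 binds together with a C/EBP partner, was searched as TGATGNAA on both strands. In the RefSeq promoters on GRCh38.p14, 250 bases before to 50 after the start, 3 of the 8 genes with an entry (ATF3, CHAC1 and CEBPG) held it, beside 4.46% of 27305 genes. NUPR1 had no entry. In a wider window of 500 bases on each side of the canonical start in GENCODE release 44, chosen after seeing the data, 5 of the 8 held it (DDIT3, ATF3, CEBPG, TRIB3 and CHAC1), beside 7.38% of 15345 protein-coding genes. All 8 matches of the wider window in the 5 genes read TGATGCAA. The ATF3 match in the RefSeq promoters is another site, which reads TGATGGAA at -191 from the start in that table, and is not shown. They are shown because the genes with the largest and the smallest change, TRIB3 and CHAC1, both hold the element. A match is a description of the letters and not a binding site. Each line gives 30 bases of GRCh38 5′ to 3′ on the strand where the element reads forward, with the element in capitals. The position is that of its most upstream base in the direction of the gene, counted from the canonical start and negative before it.
DDIT3, chr12:57520802-57520831, plus strand, position -306: gggggcggggaTGATGCAAtgtttggcaac
ATF3, chr1:212608547-212608576, minus strand, position -203: gggggcactggTGATGCAAgttcggggagg
ATF3, chr1:212608729-212608758, plus strand, position -21: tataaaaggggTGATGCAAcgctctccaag
CHAC1, chr15:40953251-40953280, minus strand, position -209: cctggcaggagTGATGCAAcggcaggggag
CEBPG, chr19:33374060-33374089, plus strand, position 362: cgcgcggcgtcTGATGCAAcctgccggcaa
TRIB3, chr20:380881-380910, minus strand, position 132: cccggtccgggTGATGCAAaccggagctaa

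TRIB3 held 3 copies of this 30-base sequence, 33 bases apart, inside the first exon of its canonical transcript, and 0.0326% of the 15345 genes had at least 3 matches. The second ATF3 match and that of CHAC1 lie in exons of other transcripts of these genes. The CEBPG match lies in the first intron of its canonical transcript, and the remaining matches in DDIT3 and ATF3 lie in introns of longer transcripts. The CRE, TGACGTCA, the site of CREB and ATF dimers, was present in PPP1R15A, at position -58, and in 3.64% of all genes in the wider window and 2.25% in the RefSeq promoters. The bases around it, chr19:48872352-48872381 on the plus strand, are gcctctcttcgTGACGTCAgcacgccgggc, with the CRE in capitals. The ER stress element, ERSE, searched on both strands too, was found in none of the 8 genes, beside 0.0916% of genes in the RefSeq promoters and 0.176% in the wider window.

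**Figure D3:**
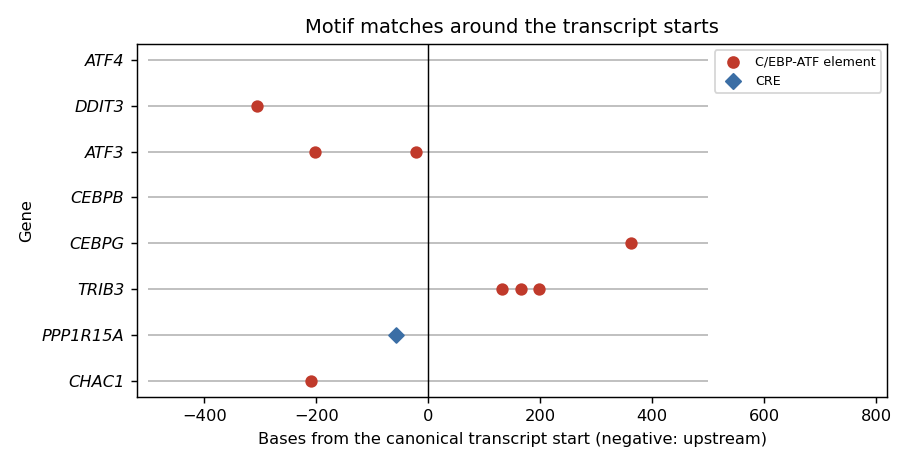
Position of the most upstream base, in the direction of the gene, of each match to the C/EBP-ATF element (circles) and the CRE (diamond) in 500 bases on either side of the canonical transcript start, in bases, for the 8 genes with a promoter entry. TRIB3 shows 3 matches 33 bases apart after the start, ATF3 shows 2 before it, and ATF4 and CEBPB show none.

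The genes with the pattern most like each member were found among 7044 other protein-coding genes with a mean of at least 5 FPKM, as the distance between their pairs of log2 changes over the 3 libraries. ATF4 and CHAC1 had many close neighbours, with 71 and 562 genes within a distance of 0.25. The nearest to ATF4 were PQBP1 (0.016) and SLC25A38 (0.023), and to CHAC1 ZNF670 and MED19 (0.011 each). CEBPB was nearest to RPL22L1 (0.078) and KRT80 (0.128), and CEBPG to RAP2B (0.053) and DUSP8 (0.062). NUPR1 was nearest to GADD45A (0.181) and GDF15 (0.21). DDIT3, TRIB3 and PPP1R15A had no gene within 0.25. The amino acid transporter subunit SLC3A2 was nearest to ATF3 (0.22) and to PPP1R15A (0.272), followed for both by AREG (0.298 and 0.326), which was nearest to DDIT3 (0.38), ahead of PRRX2 (0.383). CSF2 (0.516) and SCG5 (0.876) were nearest to TRIB3. Both CSF2, with 0.24 FPKM in DMSO, and PRRX2, with 0.47 FPKM, passed the filter of 5 FPKM only through the treated libraries. The same holds for SCG5 (1.27 FPKM in DMSO), AREG (2.19), KRT80 (3.37), RAP2B (3.71), ZNF670 (4.49) and RPL22L1 (4.97).

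The other genes of the pathway were described by 11 lists ordered by role, with 103 of 111 genes at a mean of at least 1 FPKM. At 5 μM 43 of the 103 were higher by more than 1 on the log2 scale and 3 were lower, and at 2.5 μM 40 were higher and 1 was lower. The higher genes are a share of 41.7% and 38.8% beside the 14.2% and 12.2% of all genes. ASNS (0.77 FPKM in DMSO), CBS (0.86) and CEBPA (0.57) passed the filter only through the treated libraries. ASNS and CBS are counted as higher at both doses, and CEBPA at 5 μM. The median log2 change of the 103 genes was 0.74 at both doses. Rescaling each library to a common sum without mitochondrial and small RNA genes lowered the median of all genes by 0.37 at 5 μM and by 0.29 at 2.5 μM, and the pathway median was then 0.36 and 0.46.

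In the 4 lists of eIF2, eIF2B, the kinases, their regulators and the phosphatase, 3 of 22 genes were higher by more than 1 at 2.5 μM and 4 of 22 at 5 μM, shares of 13.6% and 18.2% that are near those of all genes. Of the 4 eIF2α kinases, EIF2AK3 (PERK), the kinase of the endoplasmic reticulum, had 3.81 FPKM in DMSO, 7.99 FPKM at 2.5 μM and 7.15 FPKM at 5 μM, log2 changes of 1.05 and 0.89. EIF2AK2 (PKR), the kinase of double-stranded RNA, had -0.47 and -0.84, and the median of the kinases was -0.23 and -0.42. It was -0.52 and -0.79 after the rescaling without mitochondrial and small RNA genes, and -0.05 and -0.10 with the trend with transcript length removed. Of the 8 subunits of eIF2 and its exchange factor eIF2B, 7 were higher at both doses as deposited. The median of the 8 was 0.78 and 0.76 (0.50 and 0.38 after that rescaling), beside 0.00 and -0.01 over all genes as deposited. EIF2B2 (1.22 and 1.49) and EIF2S2 (0.97 and 1.14) led. PPP1R15B, the constitutive counterpart of PPP1R15A, had 26.5, 64.4 and 59.3 FPKM, log2 changes of 1.28 and 1.16. It exceeded PPP1R15A in DMSO and was below it in both treated libraries. The catalytic subunit PPP1CA had 0.09 and 0.61, and the list of 4 phosphatase subunits had a median of 0.29 and 0.55, which was -0.005 and 0.17 after the rescaling. The 6 regulators of the kinases had a median of 0.04 and -0.28, which was -0.25 and -0.66 after that rescaling and 0.17 and 0.07 with the length trend removed. PRKRA, an activator of PKR, led with 0.88 and 1.24, while DNAJC3, an inhibitor of PERK, had -0.06 and -0.34.

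The paralogs and relatives of the 9 genes were mixed. Of 7 paralogs at a mean of at least 1 FPKM, 3 were higher and 1 lower by more than 1 at each dose. Of all genes, 12.2% and 14.2% were higher and 15.2% and 17.4% lower by that much. The higher paralogs were CEBPD and JDP2 (1.955 and 1.485) at both doses, TRIB1 (1.13 and 0.67) at 2.5 μM and CEBPA at 5 μM. CEBPA, at 0.57 FPKM in DMSO, passed the filter only through the treated libraries. CEBPD went from 68.5 FPKM in DMSO to 248 and 203 FPKM, log2 changes of 1.85 and 1.57, and CEBPA from 0.57 to 1.08 and 2.72 FPKM, 0.82 and 2.08. TRIB2 was the lower paralog, with -1.27 and -1.40, while TRIB3 itself had 4.61 and 4.84. ATF5, the closest relative of ATF4, had 6.06, 5.37 and 11.2 FPKM. CHAC2, the constitutive counterpart of CHAC1, had 7.72, 14.97 and 5.57 FPKM, so that the treated libraries lay on opposite sides of DMSO. The 11 other ATF and CREB factors had a median of 0.74 and 0.32, which was 0.46 and -0.05 after the rescaling, with ATF1 (1.33 and 1.67) and CREB3 (1.22 and 1.42) leading.

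Downstream, 12 of 12 tRNA synthetases were higher at both doses, 9 of them by more than 1. Of all genes, 12.2% at 2.5 μM and 14.2% at 5 μM were higher by more than 1. The median of the synthetases was 1.38 at each dose, beside 0.00 and -0.01 over all genes. It was 1.085 and 0.997 after the rescaling without mitochondrial and small RNA genes. SARS1 had 31.8, 142 and 153 FPKM and WARS1 15.9, 61.3 and 66.2 FPKM. Of 19 ATF4 targets in amino acid supply, 9 were higher by more than 1 at 2.5 μM and 11 at 5 μM, and CTH was lower by more than 1 at 5 μM (-1.40). The median of the 19 was 0.94 and 1.10, and 0.65 and 0.72 after the rescaling. ASNS, at 0.77 FPKM in DMSO, and CBS, at 0.86 FPKM, are counted as higher at both doses. Both passed the filter only through the treated libraries. SLC3A2 had 38.04, 430 and 487 FPKM, log2 changes of 3.49 and 3.67, and ASNS, asparagine synthetase, 0.77, 5.21 and 4.67 FPKM, 2.61 and 2.46. SLC7A11, the cystine transporter that pairs with SLC3A2, had 3.59, 4.03 and 3.94 FPKM, changes of 0.16 and 0.13. Of 10 other ATF4 targets 6 were higher by more than 1 at each dose, led by SESN2, an inhibitor of mTORC1, with 4.07, 41.2 and 41.0 FPKM, and the secreted factor GDF15 with 179, 1572 and 1637 FPKM. The median of the 10 was 1.36 and 1.40, and 1.07 and 1.02 after the rescaling. Of 6 CHOP targets, 3 were higher by more than 1 at each dose, beside 12.2% and 14.2% of all genes. These 3 were the death genes BBC3 (2.65 and 2.58), TNFRSF10B (1.92 and 1.96) and PMAIP1 (1.44 and 1.32). The median of the 6 was 0.94 and 0.71, and 0.655 and 0.335 after the rescaling. The oxidase ERO1A had -0.30 and -0.36.

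The IRE1 and ATF6 arms, the other branches of the unfolded protein response, are given beside the core. Of their 16 genes, 4 were higher by more than 1 at each dose, beside 12.2% and 14.2% of all genes. HSP90B1 was lower by more than 1 at 5 μM (-1.06), as were 17.4% of all genes. The median of the 16 was 0.29 and 0.15, which was 0.003 and -0.23 after the rescaling without mitochondrial and small RNA genes. The higher genes were HERPUD1 (2.82 at both doses), DNAJB9 (1.97 and 2.24), ERN1 (2.35 and 2.06) and XBP1 (1.40 and 1.56). HSPA5 (BiP), the main chaperone of the endoplasmic reticulum, had 209, 305 and 353 FPKM, changes of 0.54 and 0.75, whereas CALR, PDIA4 and CRELD2 were lower than in DMSO at both doses, by less than 1.

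**Figure D4:**
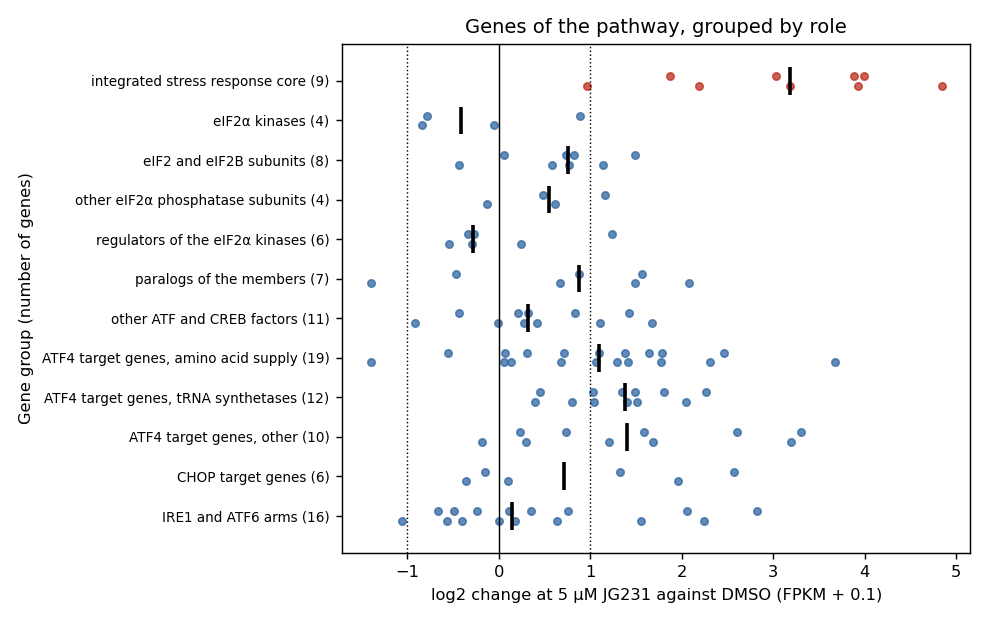
log2 change at 5 μM JG231 against DMSO for the 9 genes of the core (red) and the genes of 11 lists of the same pathway (blue), with a bar at each median and the number of genes in brackets. The core has a median of 3.18, the tRNA synthetases 1.38, the IRE1 and ATF6 arms 0.15 and the eIF2α kinases -0.42.

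The 9 genes were recomputed under 7 other processings of the values. Not all of the 7 could test the genes. Each gene name matched 1 row, so merging rows that share a name left every value as it was. Centring on the median gene moved the values by 0 at 2.5 μM and by 0.008 at 5 μM. The others changed the pseudocount, rescaled the libraries to a common sum or removed the trend with transcript length. The 8 genes with a log2 change above 1 kept it under each of the 7 at both doses, and CHAC1 stayed below 1, between 0.45 and 0.80 at 2.5 μM and between 0.55 and 0.98 at 5 μM. DDIT3 at 5 μM ranged from 3.41 to 4.004 and ATF4 from 1.43 to 1.88, both lowest with the trend with transcript length removed. NUPR1 ranged from 2.002, with a pseudocount of 1, to 3.27.

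**Figure D5:**
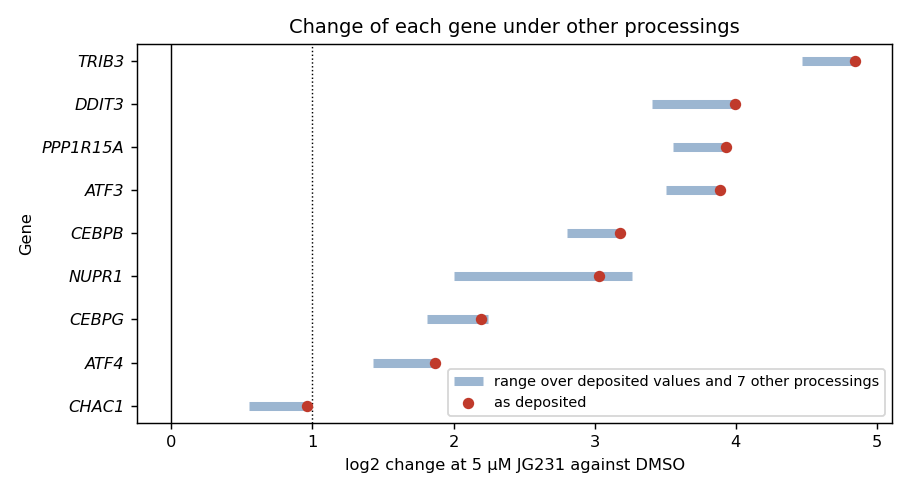
log2 change of each gene at 5 μM JG231 against DMSO as deposited (points) and its range over the deposited values and 7 other processings (bars), with a dotted line at 1. The bars of 8 genes lie above 1, and that of CHAC1 runs from 0.55 to 0.98.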

How the data were processed

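RNA-seq of H660 cells was analysed, with 1 library per condition. FPKM values were deposited by the authors, who name HISAT for alignment and StringTie for quantification in the methods. The submitters' processing notes name HISAT2, featureCounts and GRCh38. Whether counting used the strand and which annotation was used are not given in the sources used here. Versions are not given either.

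Rows were matched by identifier to GENCODE release 44 (58207 of 58735), and the members by gene name. The value of 1 fragment was read from the product of FPKM and exon length in single-transcript genes, where 84.5% to 88.5% of genes under 50 fragments were whole within 0.05. Depth was 16.1 M, 20.4 M and 24.1 M fragments. Fragments of a member were computed with its shortest annotated transcript, which gives the widest counting interval. No count test was run, since FPKM are not counts. Changes used a pseudocount of 0.1, following the study's methods, and genes with a mean of at least 1 FPKM formed the background.

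The members and the lists were chosen with earlier results of these data known. All members are named. In each list up to 2 genes of equal sign at both doses and the largest change at 5 μM are named, and for each member the 2 nearest patterns. Other list genes were named after their values were seen, among them ATF5, CHAC2, TRIB1, TRIB2, JDP2, CTH, CBS, SLC7A11, PMAIP1, ERO1A, HSP90B1, ERN1, XBP1, HSPA5, CALR, PDIA4, CRELD2, NUPR2, FGF21, CEBPE and CREB3L1. Promoters are from RefSeq on GRCh38.p14. Some marker genes are not reported here. The scripts were tested on simulated data. The software was scipy 1.17.1, numpy 2.4.6, statsmodels 0.14.6, pandas 2.3.3 and, for figures, matplotlib 3.10.9 under Python 3.11.15.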

Additional observations from a re-analysis of the deposited data

How the results depend on the processing

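With 1 library per condition no library could be left out, no replicate error exists, and counting intervals cover counting error only. No paired analysis was possible because each condition had 1 library. Of the values of single genes and lists, 377 moved by less than their tolerance and 64 by more, and none with a log2 change over 1 turned its sign. The 377 include the values from merging rows that share a name and from centring on the median gene, which could hardly move. The median of the 9 genes at 5 μM was 3.05 with a common FPKM sum, 2.80 with that sum taken without mitochondrial and small RNA genes, 3.27 with the length trend removed and, over the 8 genes left without NUPR1, 3.53 among genes with a mean of at least 5 FPKM. Between the doses it was 0.05, 0.14 and 0.10 under the first 3 of these. The number of the 9 genes higher from 2.5 to 5 μM went from 0 to 3 with a threshold of 0.25 and FPKM over 1 in either library.

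For the other pathway genes, the median at 5 μM was 0.60 with a common sum and 0.36 without mitochondrial and small RNA genes, and at 2.5 μM 0.46 under the latter. A threshold of 0.25 with FPKM over 1 in either library gave 71 higher genes at 2.5 μM, 67 at 5 μM and 16 between doses. Between doses the number over 1 was 2, and it was 0 with a pseudocount of 1, 1 with either rescaling, with the length trend removed or with a mean of at least 5 FPKM, and 4 without a filter.

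The number of all genes higher by more than 1 was 1682 at 2.5 μM, 1955 at 5 μM and 707 between doses. At 2.5 μM it was 1035 with the sum taken without mitochondrial and small RNA genes, 5728 with the threshold of 0.25 and FPKM over 1 in either library together, 1037 with a mean of at least 5 FPKM and 3268 without a filter. At 5 μM these numbers were 1088, 5755, 1239 and 3088. Between doses it was 405 with a pseudocount of 1, 3801 with the threshold of 0.25 and its filter, 96 with a mean of at least 5 FPKM and 2188 without a filter. The cause of these shifts was not tested, beyond the fewer or more genes that a filter leaves.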

Other observations

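MIR616, a microRNA gene of 97 bases inside an intron of DDIT3 on the same strand, was listed at 0 in DMSO and had 3.04 FPKM at 2.5 μM and 20.1 FPKM at 5 μM. DDIT3 had 24.8, 338 and 397 FPKM in the same libraries, and whether the reads of MIR616 belong to it was not tested. NUPR2, the paralog of NUPR1, was listed at 0 in DMSO and had 0.41 FPKM at 2.5 μM and 2.41 FPKM at 5 μM. FGF21, a secreted ATF4 target, was listed at 0 in DMSO and had 0.30 and 0.44 FPKM, under the mean of 1 FPKM asked of the lists. CEBPE and CREB3L1 were listed at 0 in all 3 libraries.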
